A study of Mus musculus with 46 samples.

Results

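The primitive endoderm is the layer of the blastocyst that lines the blastocyst cavity and gives rise to the yolk sac endoderm. Its marker genes Gata6, Gata4, Sox17, Sox7, Pdgfra, Foxa2, Dab2, Amn and Cubn were chosen by name, and all 9 were among the 7182 genes of the expression table. Their levels were followed in 33 RNA libraries from wild-type (WT) mouse embryos and from embryos with a knockout (KO) of Rbbp5, a core subunit of the histone H3 lysine 4 methyltransferases. At embryonic day (E) 3.5 the inner cell mass (ICM) of single embryos, isolated by immunosurgery, gave 7 WT and 7 KO libraries. At E4.5 single cells gave 7 WT and 3 KO libraries labelled epiblast and 1 WT and 2 KO libraries labelled primitive endoderm. At E5.5 the epiblast, dissected by hand from single embryos, gave 3 WT and 3 KO libraries. The KO embryos came from WT zygotes injected with Cas9 mRNA and a guide RNA against Rbbp5, or from Rbbp5 flox/flox zygotes injected with Cre mRNA. The sources used here do not give which of these made a library, nor the share of an embryo's cells that lost the gene. The level of Rbbp5 was not analysed here, and the genotypes are taken as labelled.

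In the ICM of the blastocyst, cells that receive fibroblast growth factor 4 (FGF4) signals through FGF receptors keep the transcription factor GATA6 and become primitive endoderm, and cells that keep NANOG become epiblast. GATA6 is followed by the receptor PDGFRA, then by SOX17 and GATA4, and later by SOX7. The endoderm that forms takes up nutrients with the receptor pair cubilin and amnionless, encoded by Cubn and Amn, and with the clathrin adaptor disabled 2, encoded by Dab2.

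The stretches in front of the start sites of the 3 uptake genes are shown because Cubn was the member called in the ICM and because Dab2 and Amn stood lower in each KO primitive endoderm cell than in the WT one. Each has 250 bases, ends at the base before a start in the RefSeq promoter table of GRCm38.p6, and is written 5′ to 3′ on the strand of the gene. Capitals mark CG dinucleotides, the sites of DNA methylation in mammals.
Cubn, chr2:13491877-13492126, minus strand: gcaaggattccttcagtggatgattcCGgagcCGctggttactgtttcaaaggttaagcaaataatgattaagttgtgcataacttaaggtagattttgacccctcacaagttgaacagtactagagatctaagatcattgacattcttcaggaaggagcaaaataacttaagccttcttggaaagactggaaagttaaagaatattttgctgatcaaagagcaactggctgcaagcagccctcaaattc
Dab2, first start, chr15:6299539-6299788, plus strand: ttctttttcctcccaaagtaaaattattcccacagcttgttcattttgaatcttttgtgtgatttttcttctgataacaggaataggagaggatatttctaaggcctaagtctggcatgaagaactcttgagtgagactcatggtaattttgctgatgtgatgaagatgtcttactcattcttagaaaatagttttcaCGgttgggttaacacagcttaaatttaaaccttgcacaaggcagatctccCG
Dab2, second start, chr15:6386498-6386747, plus strand: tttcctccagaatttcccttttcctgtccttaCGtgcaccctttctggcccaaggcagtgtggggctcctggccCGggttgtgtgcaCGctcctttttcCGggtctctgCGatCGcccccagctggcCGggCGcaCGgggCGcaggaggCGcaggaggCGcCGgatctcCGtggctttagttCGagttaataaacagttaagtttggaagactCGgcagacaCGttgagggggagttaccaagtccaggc
Amn, chr12:111270846-111271095, plus strand: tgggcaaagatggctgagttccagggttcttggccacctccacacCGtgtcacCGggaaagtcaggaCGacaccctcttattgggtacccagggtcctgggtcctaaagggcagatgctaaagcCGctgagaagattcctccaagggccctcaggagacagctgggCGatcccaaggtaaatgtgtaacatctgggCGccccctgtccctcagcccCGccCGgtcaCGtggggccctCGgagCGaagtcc
The stretch before Cubn and that before the first start of Dab2 had 2 CG dinucleotides each. Amn had 11 and the second start of Dab2 had 17, where the median of 32851 promoters of the same length was 6. The first start of Dab2 in that table lies 1 base inside the gene as annotated, so the stretch before it ends on the gene's first base. Gene-level values cannot tell the Dab2 starts apart. The letters GATAA, read on either strand, a core of sites bound by GATA factors, stood in the stretch before the first start of Dab2 and in none of the other 3. They stood in 22.6% of all promoters. The letters ACAAT, read on either strand, a core of sites bound by SOX factors, stood in none of the 4, and in 27.7% of all promoters. Sequences of 5 of the 9 members were read from that table, and Gata6 was left out of that reading.

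Values are FPKM, fragments scaled by mapped fragments and by transcript length, and scaled by length and so can be set side by side between genes. Their sequencing depth is unknown. A value of 0 may be a failed estimate, and 869 values of the table lay above 0 but under 1e-06. At 1 FPKM or more, WT ICM libraries had 5110 to 5718 genes and KO ICM libraries 3628 to 5136, with KO ICM 1, 4 and 6 lowest. The E4.5 cells had 3026 to 4682 and the E5.5 libraries 5457 to 5895. Markers of the trophectoderm, the outer layer of the blastocyst, had sums, over the 9 in the table, of 43.6 to 836 FPKM in WT ICM libraries and of 7.91 to 57.0 in those of KO ICM. In E5.5 libraries the sums were 76.2 to 121 FPKM in WT and 1154 to 2433 in KO libraries. In the same KO libraries Pou5f1, which encodes the epiblast factor OCT4, had 4.57 to 19.9 FPKM against 103 to 190 in WT. The sums of 9 epiblast markers were 264 to 524 FPKM in KO and 1090 to 1232 in WT. Not all of these markers fell: Esrrb had 1.35 to 5.59 FPKM in KO and at most 0.0739 in WT. The sums of both marker sets thus went against the label epiblast in all 3 KO libraries. No comparison of KO with WT at E5.5 could be had without them. Of the trophectoderm markers, Gata2 was at 0 in every KO ICM library and had at most 0.0326 FPKM in WT ICM. Cdx2 was at 0 in every WT E5.5 library and had 0, 3.21 and 0.828 FPKM in KO E5.5 1 to 3.

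Gata6 and Dab2 were the highest members in the ICM. The highest member was Dab2 in 4 and Gata6 in 3 of the 7 WT ICM libraries, and Gata6 in 4 and Dab2 in 3 of the 7 KO ICM libraries. Pdgfra and Cubn stood at a few FPKM, and the factors Gata4, Sox17 and Sox7 were low or at 0 in most ICM libraries. Foxa2, a pioneer factor of definitive and visceral endoderm, was at 0 in all 14.

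**Figure D1:**
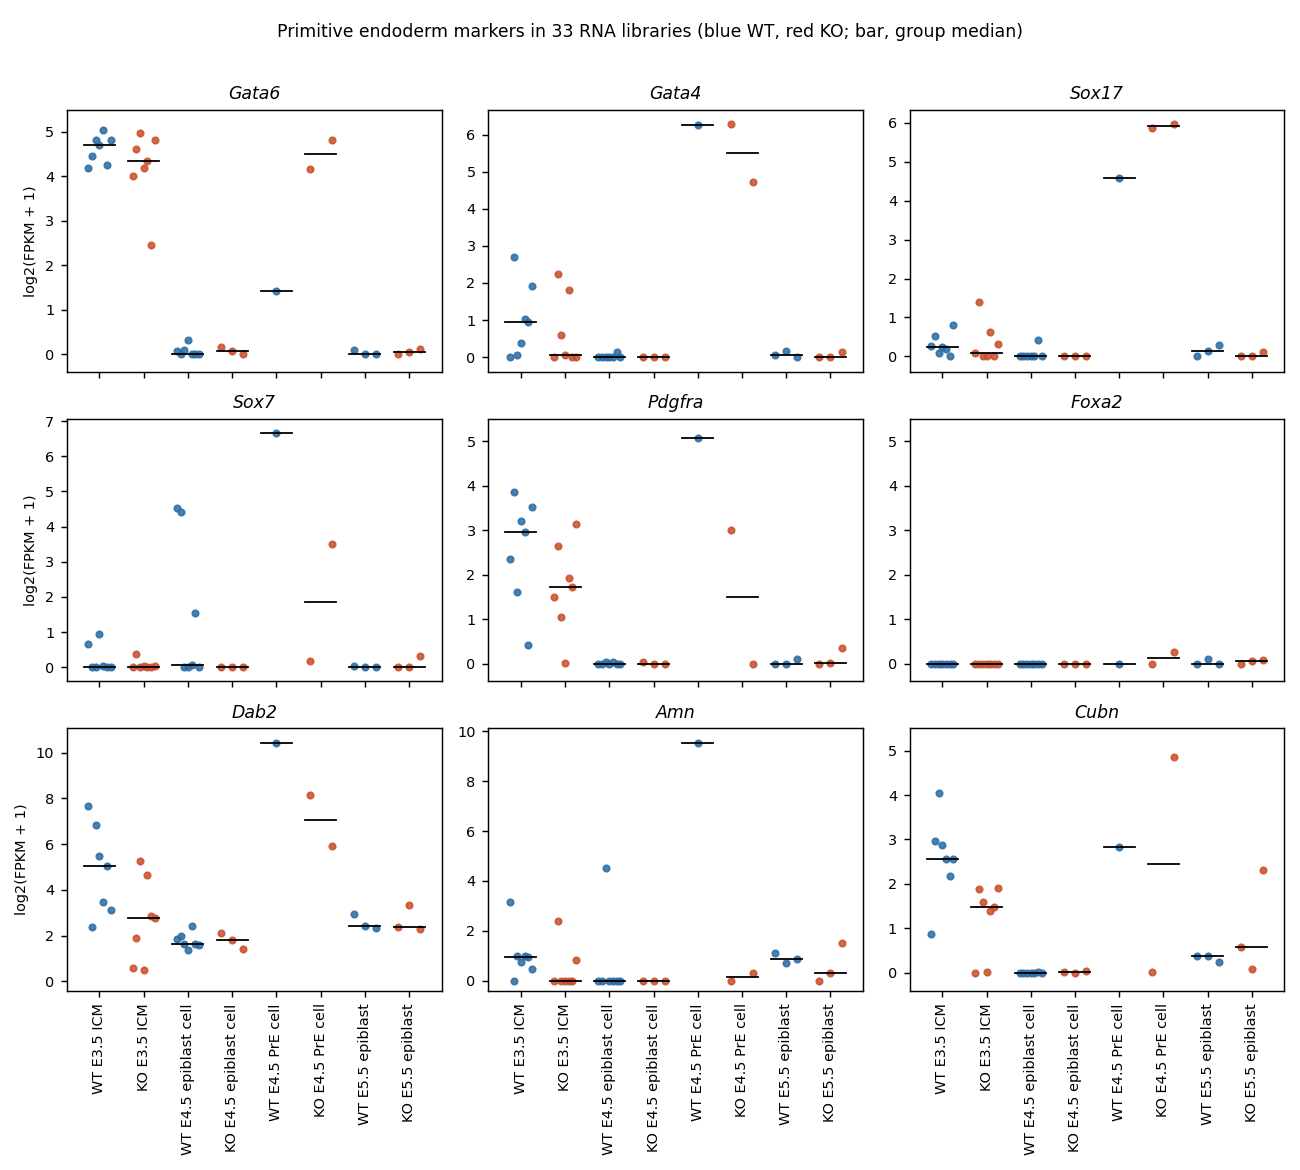
Level of each of the 9 members in every RNA library (vertical axis, log2(FPKM + 1)), with 1 point per library, WT in blue and KO in red, and a bar at the group median of these log values. Gata6 points lie high in all but 1 of the 14 ICM libraries, and the Gata4, Sox17, Sox7 and Amn medians are highest in a group of cells labelled primitive endoderm (PrE).

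The E3.5 comparison asked what loss of Rbbp5 changed in the ICM. Cubn, the large uptake receptor, was lower in KO ICM than in WT ICM. It was the only 1 of 6 tested members called at an adjusted p under 0.05 by limma, which fits a linear model per gene with variances moderated across genes, on log2(FPKM + 1) with Benjamini-Hochberg adjustment over all 5443 genes tested. Of those genes 28.3% were called, 3.44% higher and 24.9% lower, and the median log2 change of all of them was -0.65. With the number of detected genes in the fit limma called 0 of the 5443 genes, with 314 at an unadjusted p under 0.05. That number was 5110 to 5718 in WT and 3628 to 5136 in KO ICM libraries. It nearly splits the genotypes, so this fit can hardly tell the 2 apart, and a call lost under it decides nothing. The members' share of calls, 1 of 6, was no higher than the 28.3% of all tested genes. An unadjusted p under 0.05 was reached by 2 members, Cubn and Dab2. The median over the 6 tested members was -0.72. Gata4 and Amn had KO means of 0.969 and 0.710 FPKM and passed the filter through their WT means of 1.50 and 1.70. The filter favours a lower KO value for them, so their direction supports nothing. Sox17, Sox7 and Foxa2 had a mean under 1 FPKM and were not tested. Fewer primitive endoderm cells and less RNA per cell cannot be told apart in such libraries.

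Cubn (chr2:13276338-13491876, GRCm38.p6) had 0.821, 6.82, 15.6, 6.34, 4.92, 3.51 and 4.93 FPKM in WT ICM 1 to 7. In KO ICM 1 to 7 it had 0, 2.69, 2.03, 0.00816, 1.63, 1.79 and 2.78 FPKM. Each KO library lay below the WT mean, but WT ICM 1 lay within the KO range, so the groups overlapped. The means were 6.14 ± 4.63 and 1.56 ± 1.15 FPKM (SD, n = 7 each). The log2 change was -1.40 (SE 0.46, limma adjusted p = 0.0321), or -0.74 relative to the median of all genes. The call rested on single libraries. Without WT ICM 2, 3, 4 or 7 the change was -1.33, -1.15, -1.35 or -1.40 and the adjusted p 0.0558, 0.0610, 0.0630 or 0.0524. Without KO ICM 1 or 4 it was -1.20 each, with adjusted p of 0.0639 and 0.0684. Without KO ICM 1, 4 and 6, the libraries with the fewest genes, the change was -0.88 (adjusted p = 0.239), after quantile normalization -0.64 (0.332), and with the number of detected genes in the fit -0.77 (0.869). The call also ended after median ratio scaling (-1.22, 0.0696), with array weights (-1.03, 0.0871) and with a pseudocount of 0.1 (-2.37, 0.0614).

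Dab2 (chr15:6299788-6440715), the adaptor that carries cubilin and amnionless into clathrin-coated pits, had a larger change with a wider spread. WT ICM 1 to 7 had 204, 4.22, 113, 44.4, 10.2, 32.0 and 7.69 FPKM. KO ICM 1 to 7 had 0.509, 2.78, 37.8, 0.422, 23.9, 6.19 and 5.76 FPKM. WT ICM 1, 3, 4 and 6 and KO ICM 3 and 5 were high, and the groups overlapped between 4.22 and 37.8 FPKM. The log2 change was -2.22 (SE 0.85, limma adjusted p = 0.0562), which missed the threshold. It passed without WT ICM 2 (-2.63, adjusted p = 0.0315), WT ICM 7 (-2.51, 0.0477), KO ICM 3 (-2.65, 0.0291) or KO ICM 5 (-2.55, 0.0297), and with the 4 embryo groups in 1 fit (-2.22, 0.0289). The 3 WT libraries highest in Dab2 also had the highest sums of trophectoderm markers, 836 FPKM in WT ICM 1, 191 in WT ICM 4 and 154 in WT ICM 3, against 43.6 to 77.2 in the other 4, with 72.2 in WT ICM 6. In KO ICM 3 and 5, where Dab2 was highest, the sums were 17.6 and 48.8. The part of trophectoderm RNA in the level of Dab2 was not tested. Cubn did not follow that order, since WT ICM 1 had the lowest Cubn of the WT libraries.

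**Figure D2:**
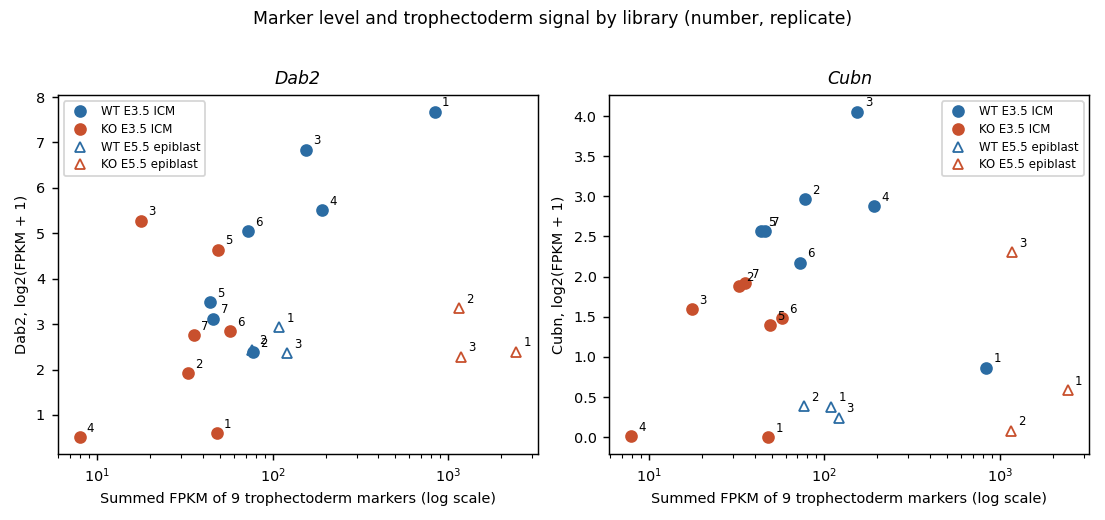
Dab2 and Cubn in each ICM and E5.5 library (vertical axis, log2(FPKM + 1)) against the summed FPKM of 9 trophectoderm markers on a log axis, with 1 point per library. WT ICM 1, 3 and 4 sit at the upper right for Dab2, while the KO E5.5 libraries lie farthest to the right with Dab2 between 3.86 and 9.16 FPKM.

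Amn, which anchors cubilin in the membrane, had 7.89 FPKM in WT ICM 1 and 0 to 0.992 in the other WT libraries. It was at 0 in 5 of 7 KO libraries, with 4.18 FPKM in KO ICM 2 and 0.787 in KO ICM 7. Its log2 change was -0.59 (SE 0.47, limma adjusted p = 0.340).

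Gata6, the earliest factor of the lineage, ran from 17.2 to 31.9 FPKM in WT ICM with a median of 25.1, and from 4.46 to 30.7 in KO ICM with a median of 19.2. KO ICM 6 was the low library, and the others lay between 15.1 and 30.7 FPKM. The log2 change was -0.41 (SE 0.35, limma adjusted p = 0.368). Relative to the median of all genes it was 0.24, and the sign turned after quantile normalization (0.19), without KO ICM 1, 4 and 6 (0.071) and with the number of detected genes in the fit (0.16). No change of Gata6 could be shown with these libraries.

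Pdgfra (chr5:75151322-75198206), the receptor of platelet-derived growth factor that supports survival of the lineage, had 4.12, 13.5, 2.07, 8.29, 6.82, 0.329 and 10.5 FPKM in WT ICM 1 to 7. KO ICM 1 to 7 had 1.82, 5.27, 1.08, 0.0144, 2.80, 2.32 and 7.82 FPKM. The means were 6.52 ± 4.69 and 3.02 ± 2.67 FPKM (SD, n = 7 each), and the ranges overlapped over most of their width. The log2 change was -0.85 (SE 0.55, limma adjusted p = 0.238), or 0.37 with the number of detected genes in the fit. Gata4, a later factor of the lineage, reached 5.45 FPKM in WT ICM 2 and 2.75 in WT ICM 7, with a WT median of 0.919. It reached 3.69 FPKM in KO ICM 2 and 2.54 in KO ICM 5, with a KO median of 0.0419 and 3 libraries at 0. Its log2 change was -0.33 (SE 0.48, limma adjusted p = 0.614), with a sign that turned under the same 3 alternatives as that of Gata6. Sox17, an HMG-box factor of endoderm, had at most 0.750 FPKM in WT ICM and 1.63 in KO ICM 2. Sox7, a relative of Sox17, had at most 0.913 FPKM in WT and 0.286 in KO ICM 2. All 9 members had overlapping WT and KO ranges. Of the tested genes 3.33% had every KO library below every WT library and 1.29% every one above. Sox17, Sox7 and Foxa2 were not among those genes, and their overlap was set by values at 0 in both genotypes.

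The gene lists around the members were chosen with earlier results known. Of the further endoderm transcription factors 9 of 10 were in the table and 5 tested, with 0 called by limma and 0 at an unadjusted p under 0.05. Of FGF and PDGF signalling genes 8 of 19 were in the table and 7 tested, with 0 called and 1 at an unadjusted p under 0.05. The basement membrane list, which holds the laminin and collagen IV chains that endoderm secretes and the enzymes that modify them, had 10 genes tested and 4 lower, Plod1, P4ha2, P4ha1 and, named after its values were seen, Nid2. In it Plod1, a lysyl hydroxylase of collagen, fell by 2.20 on the log2 scale (adjusted p = 0.0132), with -0.94 (0.111) without KO ICM 1, 4 and 6 and -0.046 (0.999) with the number of detected genes in the fit. P4ha2, a prolyl hydroxylase of collagen, fell by 1.48 (adjusted p = 0.0177), with -0.76 (0.190) after quantile normalization, -1.17 (0.0526) after median ratio scaling, -1.33 (0.0653) without KO ICM 1, 4 and 6 and -0.78 (0.836) with the number of detected genes. P4ha1, another subunit of such enzymes, fell by 1.21 (adjusted p = 0.0272), and under the same 4 alternatives had -0.88 to -0.30 with adjusted p of 0.0853 to 0.945. Its call also ended without WT ICM 1, 4 or 7 (-1.16 to -1.12, adjusted p 0.0569 to 0.0616). Hhex, a homeobox factor of the anterior visceral endoderm and the 1 gene of the visceral endoderm list tested, fell by 1.48 (adjusted p = 0.0267). Under those 4 alternatives it had -1.18 to -0.39 with adjusted p of 0.0696 to 0.944, and its call ended without WT ICM 4 or 7 or KO ICM 1 or 6 (-1.38 to -1.18, adjusted p 0.0503 to 0.0591). The medians of the factor, signalling and basement membrane lists were -0.42, -0.32 and -0.81, beside -0.65 over all genes. Of 5 tested partners of clathrin uptake, with a median of -0.36, 1 was lower, the clathrin light chain Clta (-0.65, adjusted p = 0.0318). Its call ended without WT ICM 1, 4, 6 or 7 or KO ICM 1, 4 or 6 (log2 change -0.66 to -0.54, adjusted p 0.0544 to 0.0648). It ended with a smaller change after median ratio scaling (-0.29, 0.239), with array weights (-0.45, 0.0781) and without KO ICM 1, 4 and 6 (-0.30, 0.303), and the sign turned with the number of detected genes in the fit (0.066, 0.981). Among 6 tested trophectoderm markers 4 were lower, with a median of -2.03, and of 9 tested epiblast markers 1, Prdm14, was lower. Of 3 tested markers of blood and maternal cells 1, Hba-a1, was higher and 1, Pecam1, lower.

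**Figure D3:**
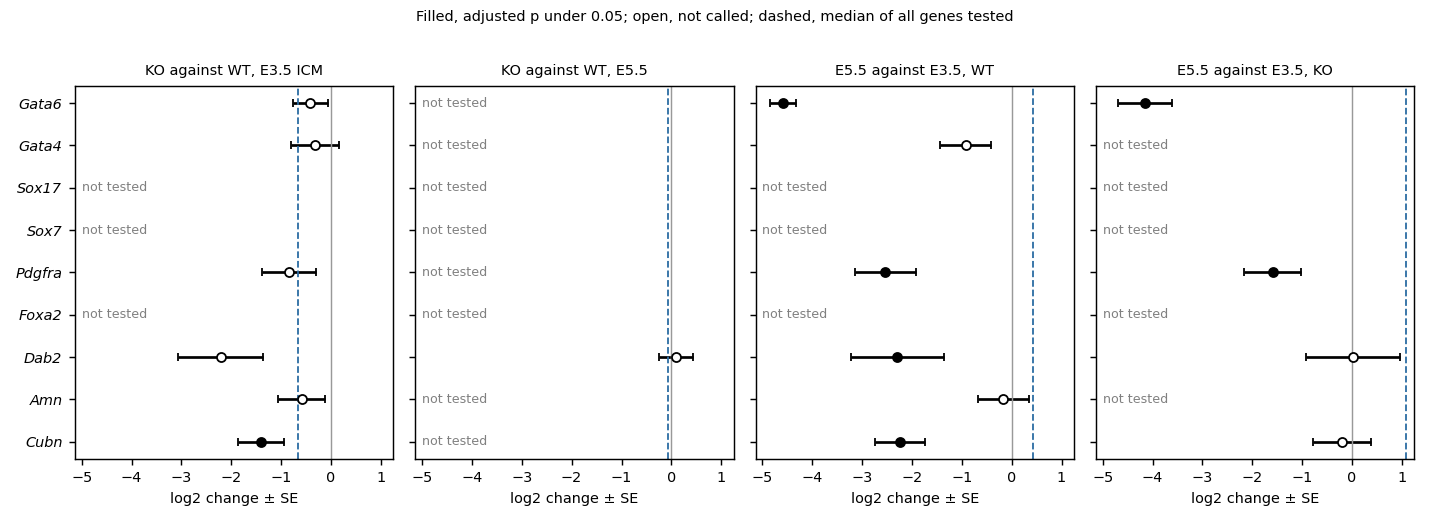
log2 change of each tested member with its SE in the 4 limma comparisons of embryo libraries, filled where the adjusted p was under 0.05, with the median of all tested genes as a dashed line. In KO ICM the changes of all 6 lie below 0 and scatter around the median of -0.65, and at E5.5 Dab2 alone was tested. In the ICM comparison Gata4 and Amn passed the filter through their WT libraries, which favours a change below 0.

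The E4.5 cells asked how primitive endoderm and epiblast cells differ with and without Rbbp5. Since no embryo is named for any cell in the labels, a group of cells was taken as 1 sample, with no test. The values describe these 13 cells. How the cells were given their labels is not known here. If marker genes such as the members were used, the counts of primitive endoderm against epiblast cells were set in advance. Of the members, 8 were higher in the WT primitive endoderm cell than in each of the 7 WT epiblast cells by a log2 ratio of means of at least 1, all but Foxa2. By the same rule 20.7% of the 7182 genes were higher in that cell. In KO, 5 members were higher in both primitive endoderm cells than in each of the 3 epiblast cells, Gata6, Gata4, Sox17, Sox7 and Dab2, where 15.5% of genes were. Sox7 was counted with only 0.126 FPKM in KO cell 1, since the KO epiblast cells were at 0. With KO cell 2 alone Cubn joined these 5, making 6. With KO cell 1 alone the 5 were Gata6, Gata4, Sox17, Pdgfra and Dab2. In turn 4 members were lower in both KO primitive endoderm cells than in the WT cell, Sox7, Pdgfra, Dab2 and Amn, where 18.2% of genes were. Against KO cell 1 or 2 alone the number was 5.

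The factors Gata4 and Sox17 were high in all 3 cells labelled primitive endoderm. Gata4 had 75.1 FPKM in the WT primitive endoderm cell and 77.5 and 25.1 in KO cells 1 and 2. It was at 0 in all epiblast cells but WT cell 6, which had 0.0971 FPKM. Sox17 had 23.0 FPKM in the WT cell and 57.6 and 62.2 in the KO cells, and reached no more than 0.345 in an epiblast cell. Nanog, the epiblast factor, had 0.397 FPKM in the WT cell and 0.590 and 0.303 in the KO cells, and Sox2, another epiblast factor, was at 0 in all 3. Pou5f1 was high in all 3, at 732, 322 and 616 FPKM in the WT cell and in KO cells 1 and 2. Utf1 had 322 FPKM in the WT cell and 1.04 and 1.66 in the KO cells, Esrrb 0, 7.41 and 16.4, and Klf4 0, 0.0277 and 38.3. Tdgf1, Fgf4 and Prdm14 had at most 1.08 FPKM. Of these 9 epiblast markers 0 stood above every epiblast cell, and the median log2 ratio of primitive endoderm to epiblast cells was -4.63 in WT and -5.19 in KO. Of 3 parietal endoderm markers in the table, Snai1 and Lama1 stood above every epiblast cell of their genotype, with Snai1 at 104, 149 and 44.4 FPKM, and Plat was at 0 in the 3 cells.

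Gata6 was low in the WT primitive endoderm cell, at 1.68 FPKM, and stood at 17.0 and 27.4 FPKM in the KO cells. In ICM libraries it had 4.46 to 31.9 FPKM, so the KO cells lay within the range of the ICM and the WT cell below it. The epiblast cells had at most 0.251 FPKM.

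Sox7, Pdgfra, Dab2 and Amn had the reverse order, while Sox17 had the order of Gata6. For Gata4 and Cubn the WT cell lay between the KO cells. Sox7 had 100.02 FPKM in the WT primitive endoderm cell against 0.126 and 10.4 in the KO cells. In WT epiblast cells 1, 2 and 6 there was also Sox7, at 22.0, 20.4 and 1.93 FPKM, while the 3 KO epiblast cells were at 0. Dab2 had 1384 FPKM in the WT cell against 283 and 60.1 in the KO cells, and 1.63 to 4.43 in all 10 epiblast cells. Amn had 746 FPKM in the WT cell against 0 and 0.251 in the KO cells, a log2 ratio of -9.37. WT epiblast cell 3 had 21.9 FPKM of Amn and the other 9 epiblast cells 0. Sox7, Dab2 and Amn thus stood lower in each KO cell than in the single WT cell, with log2 ratios of -4.01 for Sox7 and -3.01 for Dab2. Pdgfra did too, with a log2 ratio of -2.90.

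Pdgfra and Cubn also differed between the KO cells. Pdgfra had 32.9 FPKM in the WT primitive endoderm cell, 7.05 in KO cell 1 and 0 in KO cell 2. Cubn had 6.09 FPKM in the WT cell, 0.0135 in KO cell 1 and 28.0 in KO cell 2. Epiblast cells reached 0.0308 FPKM for Pdgfra and 0.0311 for Cubn. Foxa2 was at 0 in the WT cell and in KO cell 1, and had 0.193 FPKM in KO cell 2.

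**Figure D4:**
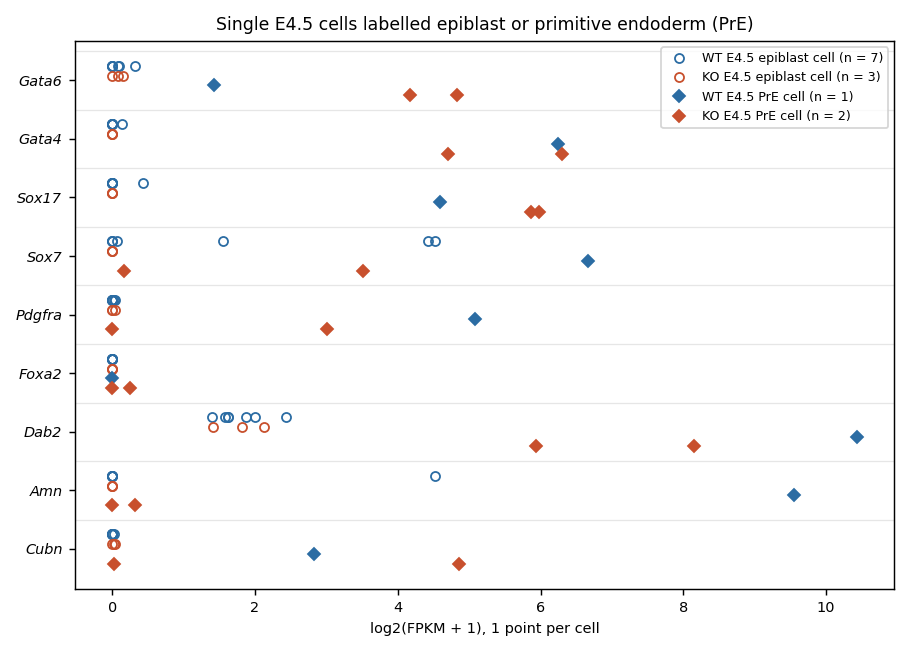
Level of the 9 members in each of the 13 E4.5 cells, as log2(FPKM + 1), with 1 point per cell, open circles for epiblast and filled diamonds for primitive endoderm (PrE). The WT diamond lies right of both KO diamonds for Sox7, Pdgfra, Dab2 and Amn and left of them for Gata6 and Sox17.

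Among the further endoderm factors, Hnf4a, a nuclear receptor of visceral endoderm, stood at 104 FPKM in the WT primitive endoderm cell, above every WT epiblast cell, and had at most 0.0203 FPKM in the KO cells. In both KO cells 2 of the 9 factors in the table were above every KO epiblast cell, Foxq1, a forkhead factor, and Creb3l2, a factor of secretory cells. Foxq1 had 28.8 and 26.7 FPKM in the KO cells and 0 in the WT cell. Of 11 basement membrane genes, 10 in the WT cell and 9 in both KO cells were above every epiblast cell of their genotype. The laminin chain Lama1 had 149 FPKM in the WT cell and 147 and 113 in the KO cells. Lamb1, another laminin chain, had 532 FPKM against 125 and 173. The list had 4 genes lower in both KO cells than in the WT cell. The single WT cell and the KO cells had 3414, 3093 and 3279 genes at 1 FPKM or more. A difference between genotypes and one between cells cannot be told apart with 1 WT cell.

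The E5.5 comparison asked what loss of Rbbp5 changed in the epiblast, a tissue that lacks primitive endoderm when cleanly dissected. Only Dab2 had a mean of at least 1 FPKM over the 6 libraries. It had 6.62, 4.41 and 4.12 FPKM in WT 1 to 3 and 4.24, 9.16 and 3.86 in KO 1 to 3, with overlapping groups. Its log2 change was 0.098 (SE 0.34, limma adjusted p = 0.847), and 0 of 1 tested member were called by limma, with 0 at an unadjusted p under 0.05. Of 5956 genes 34.1% were called, 15.6% higher and 18.5% lower. The trophectoderm markers, 8 of 8 tested of which were higher in these KO libraries, stood beside that flat level of Dab2.

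The other members were near 0 at E5.5. Gata6, Gata4, Sox17, Sox7, Pdgfra and Foxa2 had no more than 0.283 FPKM in any of the 6 libraries. Amn had 1.14, 0.617 and 0.803 FPKM in WT and 0, 0.234 and 1.85 in KO. Cubn had 0.303, 0.309 and 0.185 FPKM in WT and 0.498, 0.0581 and 3.94 in KO. KO 3 was the library with the highest Amn and Cubn. All 9 members overlapped between genotypes. Gata6, Gata4, Sox17, Sox7, Pdgfra and Foxa2 each had libraries at 0 in both genotypes, so their groups had to overlap. Of the tested genes, which held Dab2 alone of the members, 22.6% had every KO library above every WT library and 26.6% below. Of 4 tested endoderm factors 2 were higher, Klf5 (log2 change 3.71, adjusted p = 1.23e-05) and Cited1 (2.28, 0.00376). Of 8 FGF and PDGF signalling genes 3 were higher and 3 lower, among them Fgfr2, the FGF receptor of primitive endoderm and trophoblast (4.80, 0.000123), and Pdgfa, the ligand of PDGFRA (3.47, 0.000518). Of 8 tested basement membrane genes 4 were higher and 2 lower. The medians of these lists were 0.96, -0.20 and 0.15, beside -0.074 over all genes. Klf5 and Fgfr2 are also genes of the trophoblast, and the part of trophoblast RNA in their levels was not tested.

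The difference of the KO effects, E5.5 minus E3.5, was tested as an interaction over the 20 embryo libraries. Of 5917 genes 14% were called, 10.6% higher and 3.38% lower, and the median difference over all of them was 0.56. Of 5 tested members 0 were called by limma, and 1, Cubn, had an unadjusted p under 0.05. Its difference was 2.05 (SE 0.80, limma adjusted p = 0.0899), or 1.49 relative to that median. The WT mean was 6.14 and the KO mean 1.56 FPKM in the ICM, against 0.266 and 1.50 at E5.5. The difference of Cubn passed without WT ICM 1 (2.33, adjusted p = 0.0394) and with array weights (1.77, 0.0359). Dab2 had 2.31 (SE 1.43, adjusted p = 0.289). That the ICM change of Cubn differs from that at E5.5 was therefore not shown. Gata6, Pdgfra and Amn had E5.5 means under 1 FPKM in both genotypes and passed the filter through their ICM levels. With Gata6 and Pdgfra near 0 at E5.5, their differences of 0.43 and 0.94 mostly mirror their ICM changes of -0.41 and -0.85.

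From E3.5 ICM to E5.5 epiblast, 4 of 6 tested members were lower in WT and 2 of 4 in KO. In WT 56.3% of 6022 genes were called, 37.3% higher and 18.9% lower, and in KO 48.5% of 5604 genes, 39.8% higher and 8.67% lower. Apart from Dab2, and Cubn in KO, the tested members passed the filter through their ICM levels. Their direction was set by it, so these counts support nothing. Dab2 had E5.5 means of 5.05 FPKM in WT and 5.75 in KO, and Cubn 1.50 in KO. The WT ICM and KO ICM libraries are the same as in the comparisons of genotype. Gata6 went from 24.0 ± 5.35 (SD, n = 7) to 0.0220 ± 0.0380 FPKM (SD, n = 3) in WT, a log2 change of -4.58 (SE 0.26, limma adjusted p = 1.6e-08), and changed by -4.15 in KO (SE 0.55, adjusted p = 6.76e-05). Pdgfra had -2.53 in WT (adjusted p = 0.00297) and -1.59 in KO (0.0337). The KO call of Pdgfra ended without KO ICM 2 (-1.43, 0.0509) and without KO E5.5 1 (-1.53, 0.113), 2 (-1.54, 0.107) or 3 (-1.71, 0.0801), and with a pseudocount of 5 (-0.59, 0.0546). Cubn had -2.24 in WT (adjusted p = 0.00188) and -0.19 in KO (0.795). Relative to the median of all genes its changes were -2.67 and -1.28. Dab2 had -2.29 in WT (adjusted p = 0.0493) and 0.023 in KO (0.984). Relative to that median the changes of Dab2 were -2.72 and -1.06. Its WT call ended without WT ICM 1 (-1.82, 0.0618), 3 (-1.96, 0.0813), 4 (-2.18, 0.0782) or 6 (-2.26, 0.0689) and without WT E5.5 1 (-2.47, 0.0885), 2 (-2.22, 0.122) or 3 (-2.18, 0.131). It also ended with a pseudocount of 0.1 (-2.44, 0.0540) or 5 (-1.85, 0.0646), with no filter on low values (-2.29, 0.0632) and with the 4 embryo groups in 1 fit (-2.29, 0.0696). Every WT E5.5 library lay below every WT ICM library for Gata6, Pdgfra and Cubn, as for 15.9% of the genes tested, and for Gata6 in KO, as for 7.01%. The reverse, every E5.5 library above every ICM library, held for 0 members and for 33.8% of tested genes in WT and 37.8% in KO. Of the members only 6 in WT and 4 in KO were among the tested genes.

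In the order of group medians Gata6 stood apart from the other members. It was highest in WT ICM (25.1 FPKM), then in KO primitive endoderm cells (22.2) and KO ICM (19.2), whose ranges overlapped, then in the WT primitive endoderm cell (1.68), and no more than 0.0577 in the other 4 groups. Gata4, Sox17, Sox7, Pdgfra, Dab2 and Amn had their highest median in a primitive endoderm group. For Cubn the medians were 14.0 FPKM in KO primitive endoderm cells, 6.09 in the WT cell, 4.93 in WT ICM and 1.79 in KO ICM, and each of these neighbours overlapped. Values of single cells and of embryos were not tested against each other.

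The genes most like each member were ranked by Pearson r over the 8 group means of log2(FPKM + 1), among 5093 genes. The means of the primitive endoderm groups rest on 3 cells, so the ranking mostly reads those cells. Gata6 was closest to Timd2 (r = 0.979), Prr13 (0.969) and Fank1 (0.946). Gata4 was closest to Fam198b (0.994) and Sox17 to Tcf23 (0.997). Amn was closest to Tfr2, a transferrin receptor (0.998), Cubn to Fuca1, a lysosomal fucosidase (0.974), and Dab2 to Pgls, an enzyme of the pentose phosphate pathway (0.983). Pdgfra was closest to Clic3 (0.966) and Sox7 to Armc5 (0.979). No neighbour is given for Foxa2, which was near 0 in every group.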

How the data were processed

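Per the labels, cDNA of the 33 RNA libraries was made by SMART-seq2 and built into libraries with Tn5. The authors deposited FPKM in a table of 7186 lines, from which 4 lines of repeated names were left out. Such lines held the same values in the 20 embryo columns but not in all 13 cell columns, which leaves it unknown whether the cells were processed in the same run, and no test crosses the sets. Among the tools in the submitters' processing notes, with no role given, are STAR 2.7.3, HOMER 4.10.4, Bismark, Trim Galore 0.6.4, MACS2 2.2.6 and Bowtie2 2.3.5, and the build is mm10. Depth is unknown, and FPKM carries no counts.

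Tests between embryo libraries used log2(FPKM + 1) of all genes whose mean over the libraries was 1 FPKM or more, with limma 3.58.1 (R 4.3.3, trended prior, robust), with p-values adjusted by Benjamini and Hochberg's method and called under 0.05. Low genes have understated changes because of the pseudocount of 1. The labels give 1 embryo per library, so p-values measure the spread between embryos. The E4.5 cells were counted, not tested. The code was tested on simulated data. Within a group, any 2 libraries shared at most 0.0166% of their values exactly, over genes above 0 in either. The members and lists were chosen with earlier results of these data known. All members are named. In a list, genes could be named for a comparison only if among its 3 smallest p, unless said otherwise, and not all of those are reported here. The closing section gives the effect of other pseudocounts, filters, scalings, weights, fits and sets of libraries. Of 813 CpG lines in the methylation tables, 0 lay within 10 kb of a member with a position, and they were not used. The chromatin libraries were not analysed here.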

Additional observations from a re-analysis of the deposited data

Results flagged for a closer look

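In 10 of 24 groups of 4 to 10 libraries, a member's highest value lay far from the rest. Chance gives about 5% of groups. Each is a single high library over low ones, and the groups are FPKM with many values near 0.

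In KO ICM, library 2 was the high one for Amn (4.18 FPKM, next 0.787), Sox17 (1.63, next 0.543) and Sox7 (0.286, next 0.0337). In WT ICM it was library 1 for Amn (7.89 FPKM, next 0.992) and library 3 for Cubn (15.6, next 6.82). Among WT epiblast cells, cell 6 was highest for Sox17 (0.345 FPKM), Gata4 (0.0971) and Cubn (0.0192), with the other 6 cells at 0 for each. Cell 3 had 21.9 FPKM of Amn where the others had 0, and cell 4 had 0.251 FPKM of Gata6 where the next had 0.0657. These values were not tested further.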

How the results depend on the processing

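In the ICM the 1 member called, Cubn, became 0 with quantile normalization, median ratio scaling, array weights or a pseudocount of 0.1. It also became 0 with a term for detected genes and without KO ICM 1, 4 and 6. The count was 0 with a filter of 5 FPKM too, but that filter left Cubn untested. The count became 2 with the 4 embryo groups in 1 fit. Leaving out 1 library gave 0 to 2. For the difference of KO effects 0 became 1 with array weights, and 0 to 1 without 1 library. From E3.5 to E5.5 the 4 members called in WT became 2 with a filter of 5 FPKM, which left fewer members tested. The 2 in KO became 1 with a pseudocount of 5, and 1 to 2 without 1 library. They also became 1 with a filter of 5 FPKM, which left Pdgfra untested. The counts at E5.5 and in E4.5 cells stayed within 1.5 times their value. The median ICM change of all genes was 0.035 after quantile normalization (357 genes higher, 351 lower), -0.40 after median ratio scaling (306 and 707), -0.49 with array weights (190 and 1073), -0.34 without KO ICM 1, 4 and 6 (77 and 328) and -0.022 with the term for detected genes (0 and 0 by limma, 314 at an unadjusted p under 0.05). It was -0.65 as reported (187 and 1353), -0.99 with a pseudocount of 0.1 (179 and 1105), -0.33 with one of 5 (189 and 1406), -0.49 with no filter (176 and 1276) and -0.67 with a filter of 5 FPKM (200 and 997).

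Signs turned only for values that were not called, apart from Clta. In the ICM quantile normalization gave Gata6 0.19, Gata4 0.31 and Amn 0.088. Leaving out KO ICM 1, 4 and 6 gave Gata6 0.071 and Gata4 0.16. The term for detected genes gave Gata6 0.16, Gata4 0.46, Pdgfra 0.37, Amn 0.23 and Clta 0.066. At E5.5 Dab2 ran from -0.24 to 0.29 without 1 library, with -0.01 without WT 3. For the difference of effects Gata6 had -0.17 and Amn -0.14 after quantile normalization, and -0.053 and -0.031 without KO ICM 1, 4 and 6. Amn ran from -0.14 to 0.62 without 1 library. From E3.5 to E5.5 Amn in WT had 0.091 with a pseudocount of 0.1. Dab2 in KO had -0.19 with a pseudocount of 5, -1.34 after quantile normalization, -0.41 after median ratio scaling, -0.47 with array weights and -0.98 without KO ICM 1, 4 and 6. Without 1 library Dab2 ran from -0.33 to 0.46 and Cubn from -0.85 to 0.26. The causes were not tested. Of all values of single genes under an alternative, 571 kept direction and call, 60 lost the call, 8 gained it and 29 turned sign.

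Same-numbered libraries deviated together with correlations of -0.133 to 0.155 in the ICM and -0.022 to 0.118 at E5.5, so the numbers do not pair them. With the replicate number as a block 1 member was called in the ICM (Cubn -1.40, adjusted p = 0.0284), Clta lost its call (-0.65, adjusted p = 0.0534), and the members called were 0 at E5.5, 0 for the difference, 4 in WT and 2 in KO over time. No paired analysis was possible because no embryo is named for the E4.5 cells. The unknown depth limits every value near 0.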
